A study of Homo sapiens with 16 samples.

Results

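The genes described here encode enzymes that act on nucleotides, adenosine or phosphate esters, and an adenosine receptor: ENTPD1, ENPP1, NT5E, ALPP, ALPL, ADA and ADORA2B. The 7 genes were chosen by name with their counts and glucose differences in these libraries in view (values selected on: the normalized read counts of all 4 groups), and 6 of them have a row among the 18332 genes of the deposited table. ALPL, the tissue-nonspecific alkaline phosphatase, was not analysed here. MDA-MB-231 and MDA-MB-468 are human breast cancer cell lines labelled as estrogen receptor negative, and each was held in T25 flasks with 5 mM (low) or 25 mM (high) glucose for 48 hours, with 4 replicates in each of the 4 groups. No other agent, allele or transgene separates the groups, and each line is 1 established line. The methods describe serum-free treatment media after conditioning in low glucose, with MDA-MB-231 usually kept in DMEM and MDA-MB-468 in RPMI, so the line and its usual medium cannot be told apart. A mannitol control for osmolarity is described for some experiments of the study, and no such library was analysed here. The comparison of high with low glucose within a line asks which transcripts differ when cells meet a diabetic glucose level. The labels do not say whether the flasks came from separate cultures, so the spread between replicates may be technical.

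Cells release ATP, and enzymes on the cell surface take it apart step by step. ENTPD1 (CD39) removes phosphates from ATP and ADP to leave AMP, and ENPP1 cuts ATP directly to AMP and pyrophosphate, a known brake on mineral deposition. NT5E (CD73) and alkaline phosphatases such as ALPP dephosphorylate AMP to adenosine, ADA deaminates adenosine to inosine, and ADORA2B is a low-affinity, Gs-coupled adenosine receptor at the cell surface. NT5E and ALPP are both held on the membrane by a glycosylphosphatidylinositol (GPI) anchor.

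ALPP, the placental alkaline phosphatase, lies beside ALPG, a germ cell alkaline phosphatase of nearly the same sequence, so reads of one can be counted for the other. The coding sequences, taken from the GENCODE transcripts on GRCh37, were identical at 1564 of 1599 aligned bases (97.8%). The ALPP transcript holds 2654 windows of the read length that the methods give for the study's tumor libraries, and 375 of them (14.1%) also occurred in ALPG, the 1 gene with such a match. Transcripts were compared in their own direction only, so an overlap on the opposite strand does not count here. The methods describe paired reads for those tumor libraries, and a mate outside a shared stretch could still place a fragment. The longest coding stretch shared without a difference ran for 339 bases, from coding base 957 to 1295 of ALPP. Its first bases, as long as 1 window, are shown. A single read of that length from here cannot be assigned to either gene by its sequence.
ALPP and ALPG, shared: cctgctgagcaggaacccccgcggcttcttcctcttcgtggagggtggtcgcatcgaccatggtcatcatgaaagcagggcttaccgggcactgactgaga

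The promoters of the pair were also alike, and they are shown because transcripts assigned to both genes differed between the glucose groups of MDA-MB-468. The 250 bases before each annotated start, from RefSeq on GRCh38.p14, lie on the plus strand at chr2:232378501-232378750 for ALPP and chr2:232406594-232406843 for ALPG. Of 244 aligned bases, 216 (88.5%) were identical, and capitals mark the 34 bases of each sequence without an identical partner.
ALPP promoter: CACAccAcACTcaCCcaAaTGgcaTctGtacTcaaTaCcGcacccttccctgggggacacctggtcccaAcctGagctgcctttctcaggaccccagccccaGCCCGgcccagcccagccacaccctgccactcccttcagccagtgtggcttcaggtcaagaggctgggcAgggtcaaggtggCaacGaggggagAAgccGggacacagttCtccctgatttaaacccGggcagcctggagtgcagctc
ALPG promoter: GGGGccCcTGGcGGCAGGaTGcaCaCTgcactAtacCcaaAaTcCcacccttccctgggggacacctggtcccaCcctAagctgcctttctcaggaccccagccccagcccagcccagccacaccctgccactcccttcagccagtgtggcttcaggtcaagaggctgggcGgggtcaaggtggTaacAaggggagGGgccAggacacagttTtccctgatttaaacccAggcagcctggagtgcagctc
RefSeq promoter windows of 300 bases, 250 before and the rest after the start, were found for all 7 genes looked up (the 6 members with a row and ALPG). The E-box CACGTG, a part of the paired element bound by the glucose-sensing factors ChREBP and MondoA and searched on both strands, was in 7.26% of 35116 promoters and in 0 of these 7. The letters TATAAA, searched the same way and not overlapping the E-box, were in 11.5% of promoters and in 0 of the 7. With shares this low over all promoters, 0 of 7 does not set these genes apart, and nothing is read from it. Only the exact letters in a single window for each gene were searched for, and a motif outside these windows was not.

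Each library held between 14094597 and 24425916 reads counted to genes, and 3 reads, the limit that a count of 0 allows, correspond to 0.123 to 0.213 CPM (reads scaled to a common library total), for counting error only. Values are normalized read counts, that is, reads per gene divided by 1 factor per library. The line labels were checked with defining markers. The mesenchymal genes VIM, ZEB1 and AXL were at 1427 or more in every MDA-MB-231 library and at 35.4 or less in every MDA-MB-468 library, and the epithelial genes CDH1 and KRT5 were at 10.7 or less in MDA-MB-231 and at 1941 or more in MDA-MB-468. FN1 was also higher in MDA-MB-231 (28557 to 35762, against 610.3 to 789.5), and EPCAM (5279 to 6302, against 198 to 244) and EGFR (58085 to 64730.1, against 8210.1 to 9304) in MDA-MB-468. GATA3 lay between 114 and 161 in MDA-MB-231 and between 549 and 637 in MDA-MB-468, and PGR and PECAM1 were not analysed here. ESR1, the estrogen receptor, lay between 0 and 2.92 in MDA-MB-231 and between 38.2 and 69.7 in MDA-MB-468. Among markers of other cells, the leukocyte gene PTPRC lay between 0.972 and 16.4 and the collagen gene COL1A1 between 236 and 371 in all libraries. In MDA-MB-468, PTPRC was between 7.19 and 12.3 in low and between 0.972 and 5.90 in high glucose, and COL1A1 between 236 and 267 in low and between 275 and 337 in high glucose. Their part in the results below was not tested. In bulk RNA, fewer cells with a transcript and less transcript per cell cannot be told apart.

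In MDA-MB-468, among the members, the transcripts of the AMP-splitting enzymes NT5E and ALPP were lower in high glucose, by 2.07-fold and 2.62-fold, while ADORA2B was 1.35-fold higher. ADA (1.26-fold), ENTPD1 (1.09-fold) and ENPP1 (1.64-fold, on few reads and with overlapping groups) were also higher. In MDA-MB-231, NT5E was 1.15-fold lower in high glucose and the other 5 members had overlapping groups. These contrasts were in view when the genes were chosen, so their differences are descriptions and carry no p-value. By limma on log2(value + 1), with Benjamini-Hochberg adjustment over all genes tested and a threshold of 0.05, 47.6% of 15757 genes passed in MDA-MB-468 and 5 of the 6 members did, 3 higher (24.9% of all genes) and 2 lower (22.7%). In MDA-MB-231 the share was 15.1% of 14884 genes, and 1 of the 6 members, NT5E, passed. Nothing is read from these member counts. The 2245 genes past the threshold in MDA-MB-231 divided into 850 higher and 1395 lower, and into 1027 higher and 1114 lower with quantile normalization. The members' groups did not overlap for 5 of 6 in MDA-MB-468, where that held for 42.5% of all genes, and for 1 of 6 in MDA-MB-231, where it held for 18.7%. Unless stated otherwise, fold changes below are high over low glucose on the log2(value + 1) scale, with the standard error (SE) from the fit and n = 4 a group.

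**Figure D1:**
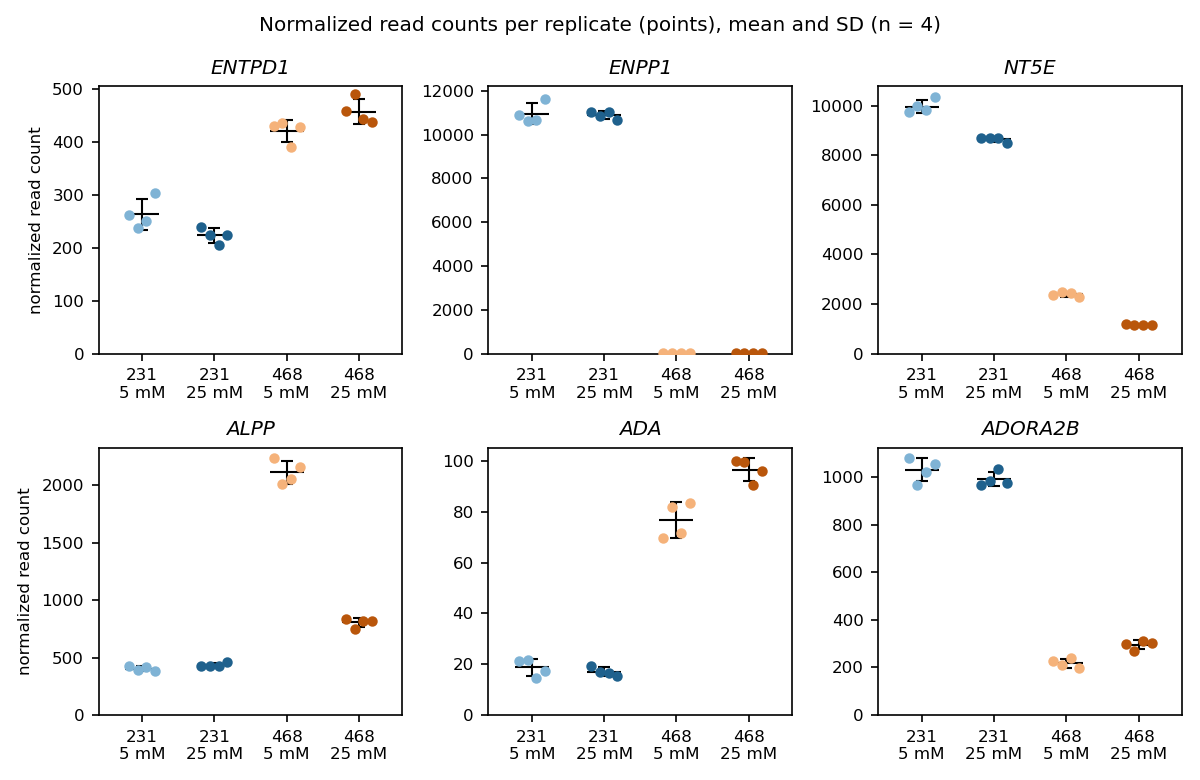
Normalized read counts of the 6 members in each replicate (points) of both lines at 5 and 25 mM glucose, on linear axes from 0, with the mean (wide bar) and SD (n = 4). NT5E and ALPP are lower in all 4 high glucose libraries of MDA-MB-468 than in all 4 low glucose libraries, and ENPP1 is near 0 on this axis in MDA-MB-468.

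ENTPD1 (ENSG00000138185), the ATP and ADP hydrolase at the head of the pathway, is annotated at chr10:97471536-97637023 on the plus strand of GRCh37. In MDA-MB-231 its counts were 262, 237, 249 and 303 in low glucose and 239, 224, 205 and 224 in high glucose. The groups overlapped, because low replicate 2 lay under high replicate 1. The means were 263 ± 28.9 and 223 ± 13.97 (SD, n = 4), a log2 fold change of -0.23 (SE 0.08). In MDA-MB-468 the counts were 429, 435, 390.4 and 427 in low glucose and 457, 490.5, 442 and 437 in high glucose. Every high glucose library was above every low glucose library, by as little as 437 against 435. The means were 420.1 ± 20.1 and 456 ± 24.3 (SD, n = 4), a log2 fold change of 0.12 (SE 0.06), and ENTPD1 was the 1 member that did not pass the threshold in this line. Of its transcript windows of read length, 2.44% also occur in 2 overlapping genes on the same strand that were not analysed here. Its exons overlap 5742 bases of the antisense gene ENTPD1-AS1, and whether the counting used strand is not given in the sources used here, so reads of the pair cannot be told apart. ENTPD1-AS1 was at 36.99 ± 7.71 in low and 34.0 ± 4.67 in high glucose in MDA-MB-231 (SD, n = 4; limma adjusted p = 0.776), and at 54.4 ± 10.5 and 57.3 ± 7.90 in MDA-MB-468 (limma adjusted p = 0.710).

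ENPP1 (ENSG00000197594), the pyrophosphate-forming ATP hydrolase, is annotated at chr6:132129156-132216295 on the plus strand of GRCh37. It differed more between the lines than any other member with a row. In MDA-MB-231 its counts were 10888, 10599.5, 10658 and 11638 in low glucose and 11019.7, 10855, 11044 and 10669.7 in high glucose. The high glucose libraries all lay inside the range of the low ones, with means of 10946 ± 478 and 10897 ± 173 (SD, n = 4) and a log2 fold change of -0.01 (SE 0.03). In MDA-MB-468 the counts were 29.3, 12.2, 22.8 and 17.1 in low glucose and 30.1, 41.5, 35.5 and 24.4 in high glucose. Low replicate 1 was above high replicate 4, so the groups overlapped. The means were 20.3 ± 7.37 and 32.9 ± 7.30 (SD, n = 4) and rest on 93 and 129 reads in all, and the log2 fold change was 0.71 (SE 0.27). Its place past the threshold was lost in 7 of 18 alternative settings, among them edgeR, DESeq2 and the omission of any 1 of 5 libraries, low replicates 2 and 4 and high replicates 1, 2 and 3. A pseudogene on the opposite strand, ENSG00000237115, shares 94 exonic bases with ENPP1.

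NT5E (ENSG00000135318), which makes adenosine from AMP, is annotated at chr6:86159302-86205509 on the plus strand of GRCh37, and none of its transcript windows of read length occurred in another gene's transcripts. In MDA-MB-231 its counts were 9733, 9978, 9831 and 10338 in low glucose and 8697, 8682, 8709 and 8494 in high glucose. All 4 high glucose libraries were below all 4 low glucose libraries. The means were 9969.8 ± 265 and 8645 ± 102 (SD, n = 4), a log2 fold change of -0.21 (SE 0.03). In MDA-MB-468 the counts were 2357, 2486, 2435 and 2279 in low glucose and 1172, 1164, 1143 and 1141 in high glucose. The groups were far apart, and the high glucose libraries lay within a narrow range. The means were 2389 ± 90.9 and 1155 ± 15.4 (SD, n = 4), a log2 fold change of -1.05 (SE 0.04). Of all genes tested in MDA-MB-468, 2.44% had a log2 fold change at or below that of NT5E.

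ALPP (ENSG00000163283), the GPI-anchored placental alkaline phosphatase, is annotated at chr2:233243434-233247599 on the plus strand of GRCh37. In MDA-MB-231 its counts were 427, 389, 419 and 380.4 in low glucose and 430.1, 425, 423 and 464 in high glucose. The groups overlapped through low replicate 1. The means were 404 ± 22.6 and 435 ± 19.4 (SD, n = 4), a log2 fold change of 0.11 (SE 0.06). In MDA-MB-468 the counts were 2235, 2014, 2049.8 and 2155 in low glucose and 838, 753, 819 and 818 in high glucose. No high glucose library came near a low glucose one. The means were 2113 ± 100.6 and 807 ± 37.4 (SD, n = 4), a log2 fold change of -1.39 (SE 0.04). At or below this value lay 1.15% of the genes tested in that line. The exons of ALPP share 631 bases with a gene on the opposite strand, ENSG00000224516, which was not analysed here. Whether reads of that gene added to the ALPP counts was not tested.

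ALPG (ENSG00000163286), the neighbour with the shared sequence shown above, was near the counting limit in MDA-MB-231, at 0, 7.83, 2.24 and 1.03 in low glucose and 0.973, 2.10, 0.929 and 0.951 in high glucose. In MDA-MB-468 it was at 141, 143, 141 and 138 in low glucose and at 57.4, 49.2, 56.1 and 50.6 in high glucose. Its groups did not overlap in MDA-MB-468, and it fell by 1.39 on the log2 scale (SE 0.11, limma adjusted p = 2.88e-08). ALPG made up 6.25% of the summed ALPP and ALPG counts in low glucose and 6.19% in high glucose in that line, and 0.693% and 0.286% in MDA-MB-231, as means of 4 libraries. The sum of both does not depend on how shared reads were divided, but it does on whether they were discarded or counted for each gene. It had a log2 fold change of -1.39 (SE 0.05) in MDA-MB-468, and of 0.10 (SE 0.05) in the other line. These SEs come from the variances of the groups and not from the fit. The part of the ALPG counts that came from ALPP transcripts was not tested. ALPI, the intestinal paralog, was not analysed here. Its coding sequence matched ALPP at 1424 of 1587 aligned bases (89.7%), with 0 shared windows of read length.

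**Figure D2:**
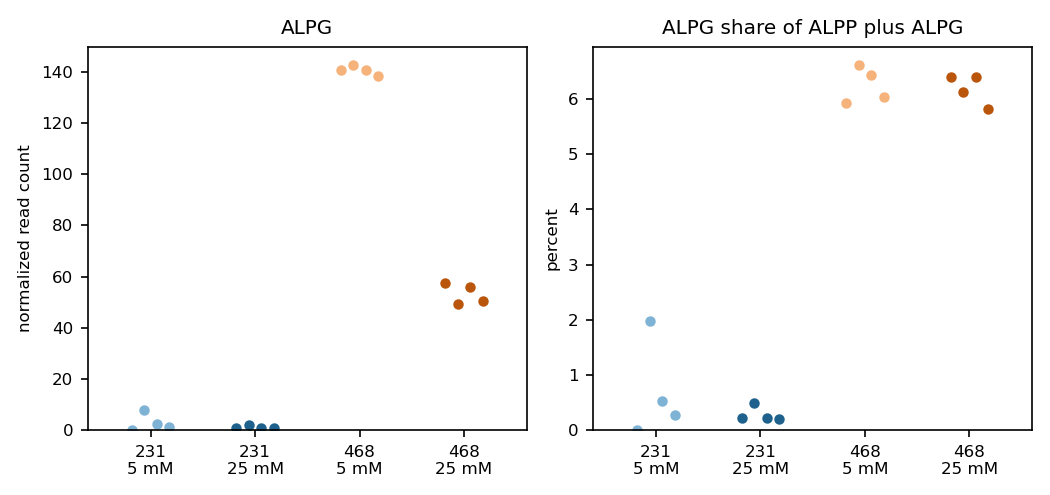
Normalized read counts of ALPG (left) and its percent of the summed ALPP and ALPG counts (right) in each library (points), by line and glucose concentration, on linear axes from 0. In MDA-MB-468, ALPG is lower in all 4 high glucose libraries while its share lies between 5.82% and 6.62% in all 8.

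ADA (ENSG00000196839), adenosine deaminase, is annotated at chr20:43213537-43280893 on the minus strand of GRCh37. In MDA-MB-231 its counts were 21.4, 21.5, 14.5 and 17.5 in low glucose and 19.5, 16.8, 16.7 and 15.2 in high glucose, from 82 and 70 reads in all. The groups overlapped, with means of 18.7 ± 3.39 and 17.1 ± 1.76 (SD, n = 4) and a log2 fold change of -0.12 (SE 0.25). In MDA-MB-468 the counts were 69.6, 81.8, 71.8 and 83.5 in low glucose and 100.1, 99.4, 90.4 and 96.1 in high glucose. The groups did not overlap. The means were 76.7 ± 7.02 and 96.5 ± 4.43 (SD, n = 4), a log2 fold change of 0.33 (SE 0.11), and its place past the threshold was lost in 5 of 18 alternative settings: DESeq2, the fit of all 16 samples, and the omission of low replicate 1, low replicate 3 or high replicate 1. The exons of ADA overlap 853 bases of PKIG on the other strand. PKIG, an inhibitor of cAMP-dependent protein kinase, rose in the same line from 67.4 ± 3.96 to 105.7 ± 13.3 (SD, n = 4), by 0.64 on the log2 scale (SE 0.12, limma adjusted p = 0.000341). Reads from the overlapping bases cannot be told apart without knowledge of strand. In MDA-MB-231, PKIG was at 392 ± 33.9 in low and 449 ± 31.1 in high glucose (SD, n = 4), where ADA was at 18.7 and 17.1. Whether PKIG reads added to the ADA counts was not tested.

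ADORA2B (ENSG00000170425), the adenosine receptor, is annotated at chr17:15848444-15879060 on the plus strand of GRCh37. In MDA-MB-231 its counts were 1079, 966, 1021 and 1056 in low glucose and 968, 985, 1034 and 977 in high glucose. The groups overlapped, with means of 1031 ± 49.2 and 991 ± 29.4 (SD, n = 4) and a log2 fold change of -0.06 (SE 0.04). In MDA-MB-468 the counts were 225, 210.1, 241 and 197 in low glucose and 297, 268, 312 and 303 in high glucose. All 4 high glucose libraries were above all 4 low glucose libraries. The means were 218 ± 19.0 and 295 ± 19.4 (SD, n = 4), a log2 fold change of 0.43 (SE 0.08). In this line the receptor thus stood above 0 with ENTPD1, ENPP1 and ADA, and the enzymes NT5E and ALPP stood below 0.

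**Figure D3:**
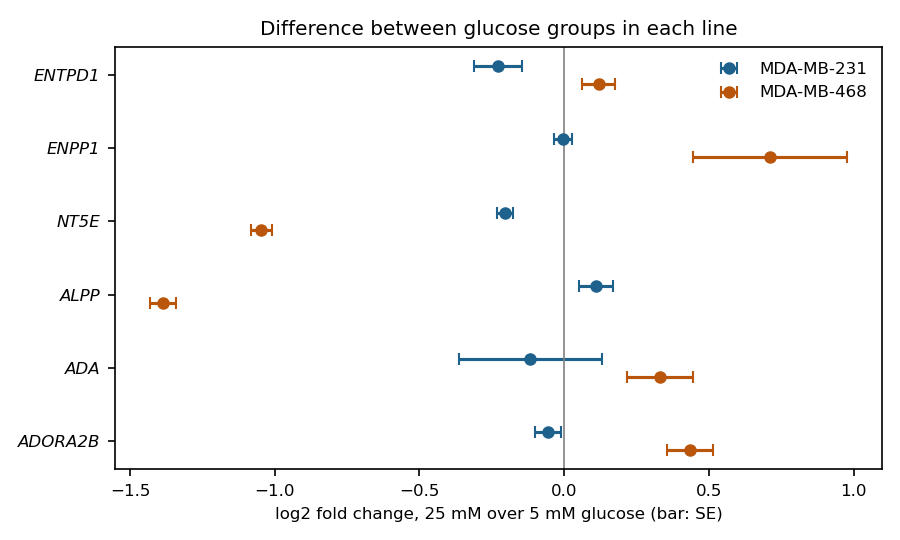
Log2 fold change of 25 mM over 5 mM glucose for the 6 members in each line, with bars for the SE of the fit (n = 4 a group). In MDA-MB-468, NT5E is at -1.05 and ALPP at -1.39 while ADORA2B is at 0.43, and in MDA-MB-231 the values lie between -0.23 and 0.11.

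The difference between the lines' responses (MDA-MB-468 minus MDA-MB-231, in 1 fit of 16 samples) followed from the same values. It was -1.50 (SE 0.07) for ALPP and -0.84 (SE 0.04) for NT5E on the log2 scale. On the other side of 0 were ENPP1 at 0.72 (SE 0.26), ADORA2B at 0.49 (SE 0.09), ADA at 0.45 (SE 0.20) and ENTPD1 at 0.35 (SE 0.10). In this fit 30.9% of 17115 genes passed the threshold, and 5 of the 6 members did, all but ADA. Of the 5, ENPP1 passed only narrowly. The counts are given beside each other and nothing is read from them, since the members were chosen with these responses known.

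The ratios of counts within a library do not depend on a scaling factor. In MDA-MB-468 the ENTPD1 count was 0.182, 0.175, 0.160 and 0.187 of the NT5E count in low glucose and 0.390, 0.421, 0.386 and 0.383 of it in high glucose. The ratio was thus higher in every high glucose library, whereas in MDA-MB-231 it was 0.0263 ± 0.00238 in low and 0.0258 ± 0.00167 in high glucose (SD, n = 4). NT5E counts were 31.4 ± 3.19 times the ADA counts in low glucose and 11.99 ± 0.446 times in high glucose in MDA-MB-468. These ratios are of RNA, are not corrected for transcript length, and do not show where an enzyme acts.

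Between the lines in low glucose, the members that were higher in MDA-MB-231 were ENPP1, ADORA2B and NT5E. ENPP1 was 538-fold lower in MDA-MB-468, with a log2 difference (MDA-MB-468 minus MDA-MB-231) of -9.07 (SE 0.19). ADORA2B was 4.71-fold lower there, at -2.24 (SE 0.06), and NT5E 4.17-fold lower, at -2.06 (SE 0.03). Higher in MDA-MB-468 were ALPP by 5.22-fold, at 2.39 (SE 0.05), ADA by 3.97-fold, at 1.99 (SE 0.14), and ENTPD1 at 0.68 (SE 0.07). All 6 members passed the threshold, as did 85.4% of 17115 genes, and none had overlapping groups, as 80.5% of genes did not.

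Levels can be compared between genes only per transcript length, as TPM, a length-corrected share of all transcripts computed from the reads and the length of 1 annotated transcript a gene. In MDA-MB-231 in low glucose the order was NT5E at 393, ENPP1 at 207, ADORA2B at 95.2, ALPP at 20.6, ENTPD1 at 2.96 and ADA at 1.76 TPM. No neighbours in that order overlapped in their libraries, and the order was the same in high glucose. NT5E was at or above 97.9% of genes by this measure. In MDA-MB-468 in low glucose ALPP led at 114 TPM, ahead of NT5E at 99.4, ADORA2B at 21.2, ADA at 7.60, ENTPD1 at 4.98 and ENPP1 at 0.404. No neighbours overlapped here either. In high glucose NT5E at 45.8 TPM (44.6 to 47.3) was above ALPP at 41.4 TPM (39.6 to 43.1), so the leading pair changed places as counted, and the others kept their order with ADORA2B at 27.4, ADA at 9.12, ENTPD1 at 5.16 and ENPP1 at 0.626. Whether ALPP and NT5E changed places depends on how reads shared by ALPP and ALPG (14.1% of ALPP windows, for single reads) were counted. As a share of the ALPP level, that percent exceeds the gap between ALPP and NT5E in low and in high glucose. How shared reads were counted is not given in the sources used here. The ENTPD1 level rests on a transcript of 12493 bases, and reads of a shorter isoform would be divided by too great a length.

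**Figure D4:**
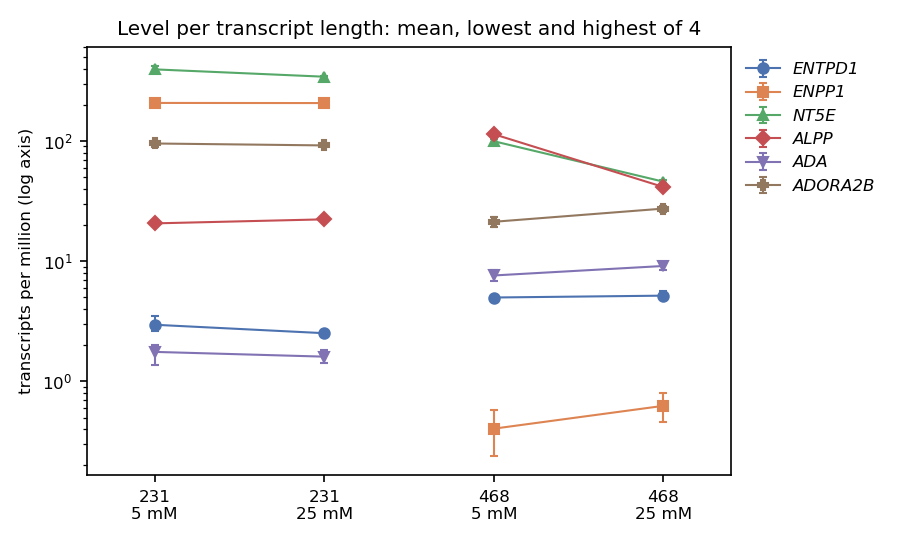
Level of each member per transcript length in TPM (log axis) by line and glucose concentration, as the mean (symbol) with the lowest and highest of 4 libraries (bars), and lines joining the glucose groups of a cell line. NT5E is highest in MDA-MB-231 at 393 and 342, and in MDA-MB-468 ALPP and NT5E, as counted, change places between 5 and 25 mM.

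The wider pathway was read from a list of 74 further genes in 11 role groups, of which 59 had a row. In MDA-MB-231, 6 of the 47 tested passed the threshold (12.8%, against 15.1% of all genes), 2 higher and 4 lower. In MDA-MB-468, 20 of 51 did (39.2%, against 47.6% of all genes), 13 higher and 7 lower. The median log2 fold change over the tested pathway genes was -0.00068 in MDA-MB-231, against 0.0017 over all genes, and 0.0054 in MDA-MB-468, against 0.00011. Both shares were near those of all genes, and no difference from them was tested.

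Among pathway genes that passed the threshold in MDA-MB-468 and whose higher group averaged 1 CPM or more, a log2 fold change of at least 0.5 in size was seen for ALPG, given above, and for 5 genes that rose. CD38, under that level, fell and is given below. SLC29A1, the equilibrative transporter that takes adenosine into cells, rose from 222, 206, 172 and 183 to 424, 358, 382 and 398, by 0.998 on the log2 scale (SE 0.08, limma adjusted p = 6.43e-08). ADORA1, a Gi-coupled adenosine receptor, rose from 401, 398, 417 and 333 to 679.5, 673, 712 and 732, by 0.86 (SE 0.07, limma adjusted p = 2.17e-08). P2RY2, a receptor for ATP and UTP, rose from 248, 247, 258 and 249.7 to 395, 383, 420.0 and 417, by 0.69 (SE 0.06, limma adjusted p = 9.44e-08). None of these groups overlapped. In MDA-MB-231, SLC29A1 and P2RY2 did not pass the threshold and ADORA1 was too low to be tested. PIGU, a subunit of the enzyme that attaches GPI anchors, rose from 348 ± 14.3 to 564 ± 11.04 (SD, n = 4), by 0.70 (SE 0.05, limma adjusted p = 1.77e-08). ACP3, an acid phosphatase with a transmembrane form that also splits AMP, rose from 58.9 ± 6.65 to 98.7 ± 17.1 (SD, n = 4), by 0.72 (SE 0.14, limma adjusted p = 0.000600). These 6 genes are given here for the size of their change in MDA-MB-468, and ALPG also as a paralog of ALPP. The difference between the lines' responses (MDA-MB-468 minus MDA-MB-231) is therefore a description for these genes. It was 0.99 (SE 0.10) for SLC29A1, 0.75 (SE 0.07) for PIGU, 0.55 (SE 0.07) for P2RY2, 1.03 (SE 0.48) for ADORA1, 0.28 (SE 0.58) for ACP3 and -1.05 (SE 0.62) for ALPG on the log2 scale. ADORA1, ACP3 and ALPG did not pass the threshold of that fit, and each was near the counting limit in MDA-MB-231.

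By role group the counts in MDA-MB-468, where 47.6% of all genes passed, were as follows, with gene names given after their values were seen. Both phosphatase paralogs or acid phosphatases tested passed, ALPG lower and ACP3 higher, and 1 of 2 adenosine receptors, ADORA1, did. Of 4 nucleotide release genes tested, the channels PANX1 and LRRC8A fell by 0.21 and 0.30 on the log2 scale and the exporter ABCC4 rose by 0.45. Of 5 surface nucleotide hydrolases, CD38, which splits NAD, fell by 1.24 (SE 0.40) from a mean of 13.4 to 5.58, and the other 4 did not pass. Of 4 Golgi and lysosomal diphosphatases, ENTPD6 rose by 0.43. Of 5 cytosolic and mitochondrial nucleotidases, NT5C2 rose by 0.23 and NT5C3A fell by 0.27. None of the 5 genes of adenosine conversion, the group that holds adenosine kinase, passed within either line, with a median of -0.06 in MDA-MB-468, although adenosine kinase (ADK) differed between the lines' responses by 0.15 (SE 0.05, limma adjusted p = 0.0448). Of 6 nucleoside transporters, SLC29A1 and SLC29A2 rose, the latter by 0.16, and of 6 P2 receptors, P2RX4 rose by 0.24 beside P2RY2. Of 8 genes of GPI anchor attachment and removal, PIGU, GPAA1 and PIGT rose, the last 2 by 0.24 and 0.14, and PGAP1, which remodels the anchor, fell by 0.45. Of 4 genes of phosphate and pyrophosphate handling, the pyrophosphatase PPA1 rose by 0.17 and the phosphate transporter SLC20A1 fell by 0.16.

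In MDA-MB-231 the 6 pathway genes past the threshold moved by 0.35 or less on the log2 scale. NT5C2 and P2RX4 rose, by 0.17 and 0.35, as they did in MDA-MB-468. ANKH, an exporter linked to extracellular pyrophosphate, fell by 0.16, PPA1 by 0.12, and the GPI transamidase subunits GPAA1 and PIGS by 0.19 and 0.15. PPA1 and GPAA1 thus passed in opposite directions in the 2 lines. The GPAA1 groups overlapped in both lines. Without high glucose replicate 3 of MDA-MB-231 the count of 6 became 3.

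**Figure D5:**
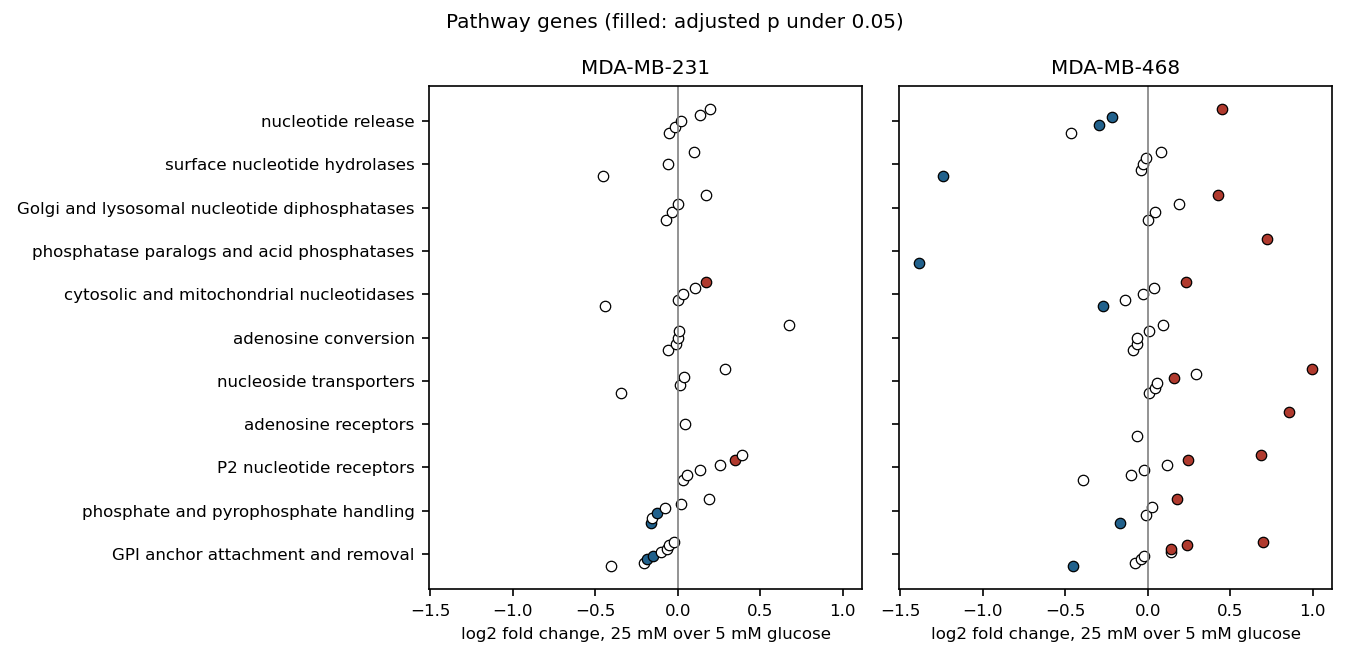
Log2 fold change of 25 mM over 5 mM glucose for pathway genes tested in MDA-MB-231 (47 genes, left) and MDA-MB-468 (51 genes, right), 1 point a gene, by role group. Filled points passed the threshold of 0.05 on the limma adjusted p (red higher, blue lower): 6 on the left and 20 on the right.

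For each member the 2 genes with the most similar pattern were found among 12100 genes by the root mean square (RMS) difference of the 4 group means of log2(value + 1), each centred on its own mean. NT5E was nearest to CHST11 (RMS difference 0.115) and PPP1R15A (0.162), and ALPP to SMG1P2 (0.137) and LINC02987 (0.146). ENPP1, with its wide gap between lines, was nearest to SMAD4 (0.0790) and CHRDL1 (0.131). ENTPD1 was nearest to TFAP2C (0.0221) and FARP1 (0.0232), ADA to EFNB1 (0.0306) and HOMER2 (0.0429), and ADORA2B to SEMA4F (0.0411) and SYNM (0.0456). With 4 group means a pattern is mostly the line difference, and likeness here describes levels only.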

How the data were processed

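RNA from 16 flasks (4 groups of 4) was sequenced on an Illumina instrument by standard Illumina protocols. The methods name a stranded mRNA kit for the study's tumor libraries. Whether the kit of these cell line libraries kept strand is not given in the sources used here. The deposited values are a normalized signal: reads per gene that the authors divided by 1 factor per library. All nonzero steps gave whole reads (100% of values, largest deviation 0.00023 reads), so read counts were recovered. The submitters' processing notes name hg38 and edgeR. The study's methods name hg19, TopHat, Trimmomatic, an Ensembl annotation, DESeq2 and edgeR for its tumor libraries, with CPM scaled by TMM, which these values are not. The table holds no coordinates, and the program that counted reads is not named there either. Positions come from GENCODE on GRCh37 and promoters from RefSeq on GRCh38.p14. Of 18332 gene IDs, 16633 matched a symbol.

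Genes that reached 0.5 CPM in 2 or more fitted samples were tested by limma 3.58.1 in R 4.3.3 (lmFit, eBayes with trend, two-sided, on log2(value + 1)), within each line (8 samples) or over 16 samples for the interaction and the line difference. Adjusted p-values follow Benjamini-Hochberg over all genes tested, with a threshold of 0.05. On recovered reads edgeR 4.0.16 called 2244 genes for MDA-MB-231 and 7484 for MDA-MB-468. DESeq2 1.42.0 was a further alternative, and other alternatives changed the pseudocount, filter, scaling, fitted samples or 1 replicate. Same-numbered replicates were not treated as pairs. The members and lists were chosen with earlier results of these data known, while the 74 pathway genes were listed by role from general knowledge.

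Named were all members, ALPG and ALPI, pathway genes past the threshold with a log2 fold change of at least 0.5 in size and 1 CPM (up to 4 per role group), genes overlapping a member, and the 2 nearest patterns among genes of at least 5 CPM. Markers were listed for the lines and for other cells. A further sequence comparison of ALPP and ALPG is not reported here.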

Additional observations from a re-analysis of the deposited data

Results flagged for a closer look

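The change with high glucose differed between MDA-MB-468 and MDA-MB-231 in a test of the difference itself (limma interaction, threshold 0.05) for 8 of 12 genes checked, where 30.9% of all genes passed. All of these but ALPG, which was named as a paralog of ALPP, were chosen with their responses in these libraries in view, so the count is a description. For the members this log2 difference was -0.84 for NT5E, -1.50 for ALPP, 0.72 for ENPP1, 0.35 for ENTPD1 and 0.49 for ADORA2B. For the pathway genes it was 0.99 for SLC29A1, 0.75 for PIGU and 0.55 for P2RY2. ENPP1 rests on few reads in MDA-MB-468, and its place past the threshold within that line was lost in 7 of 18 alternative settings. It passed the interaction threshold only narrowly, and the interaction of single genes was not followed through those settings.

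In 3 of 44 gene and group combinations, 1 of the 4 libraries lay apart from the other three by Dixon's criterion on the gap over the range, which chance gives for about 1 in 20 groups. NT5E was at 8494 in MDA-MB-231 high glucose replicate 4, below the others of its group, which lay between 8682 and 8709. ADORA1 was at 1.03 in MDA-MB-231 low glucose replicate 4, about 1 read, against 3.91 to 4.47 in the others. PIGU was at 505 in MDA-MB-231 low glucose replicate 3, against 463 to 469 in the others.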

How the results depend on the processing

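The 6 members in both lines, and ALPG, SLC29A1, ADORA1, ACP3, PIGU and P2RY2 in MDA-MB-468, were recomputed under 18 alternatives each, and among these no log2 fold change past the threshold changed sign. The other pathway genes were recomputed as counts only. In MDA-MB-468, NT5E lay between -1.07 and -1.03, ALPP between -1.41 and -1.35 and ADORA2B between 0.39 and 0.48. ENTPD1 in MDA-MB-231 passed the threshold in 2 of 18, without low replicate 2 and in the fit of 16 samples. With quantile normalization, NT5E in MDA-MB-231 was at -0.16, ENPP1 there at 0.044, and 3 rather than 6 pathway genes were called in that line. In the fit of 16 samples ADORA1 (0.86, limma adjusted p = 0.0526) and ACP3 (0.72, limma adjusted p = 0.174) in MDA-MB-468 did not pass. Leaving out 1 replicate gave 3 to 8 pathway genes called for MDA-MB-231, and 19 to 21 for MDA-MB-468. Depth limits ADA in MDA-MB-231 (82 and 70 reads) and ENPP1 in MDA-MB-468 (93 and 129 reads).

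The labels do not say whether same-numbered replicates are paired. The mean correlation of the deviations of same-numbered replicates was -0.0291 for MDA-MB-231 and 0.0260 for MDA-MB-468, with no pair over 0.1. In MDA-MB-468, 3 of 4 numbers correlated best with their own number, and in MDA-MB-231 none did. A replicate block moved the calls from 2245 to 1624 for MDA-MB-231 and, for MDA-MB-468, from 7495 to 7383, and the pathway genes called to 3 and 22, and it left the 6 members in both lines and the 6 pathway genes of MDA-MB-468 named above on their side of the threshold.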
